A study of Mus musculus with 12 samples.

Results

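Open chromatin around 9 genes of oxygen sensing and glucose breakdown was compared across 4 diet groups of mouse aortic endothelial cells. The genes were Hif1a, Epas1, Slc2a1, Hk1, Hk2, Pfkfb3, Pkm, Ldha and Vegfa, chosen by name. Overlapping ATAC-seq peaks of the 4 groups were merged into 48003 regions. A region was assigned to a gene when that gene's span was the nearest protein-coding one and lay within 100 kb. This gave 48 regions for the 9 genes, out of 21631 protein-coding genes.

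ATAC-seq uses a transposase to cut and tag accessible DNA. The cells (MAECs) were taken from offspring in 4 groups of 2 samples, named by the diet of the mothers (M) and of the offspring (O), with CD read here as control diet and WD as Western diet. In CDM-CDO mothers and offspring had CD, in WDM-CDO the mothers had WD and the offspring CD, in CDM-WDO the mothers had CD and the offspring WD, and in WDM-WDO both had WD. The WDO offspring had been put back on WD for 4 weeks. The sources used here do not give strain, sex, age, the number of mice behind a sample or how the cells were isolated. Peak names carry week 8 in both CDO lists and week 12 in both WDO lists, so the offspring's diet and that difference in weeks cannot be told apart. Each group had 1 peak list for its 2 samples, so no difference between groups has a replicate check or a p-value.

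The lists held 18962 (CDM-WDO) to 28319 peaks (WDM-CDO), with a median of 31 to 39 reads piled up at the summit and a genome background of 4.84 to 6.08 reads. Of 12 endothelial markers, 4 (CDM-CDO), 6 (WDM-CDO), 5 (CDM-WDO) and 4 (WDM-WDO) had a peak within 1 kb of a gene end. Pecam1, Cdh5, Vwf, Tek, Emcn and Egfl7 had none there in any list. Pecam1, Cdh5 and Vwf each had at least 1 region elsewhere in every list. Tek and Egfl7 had no region at all in CDM-CDO, and Emcn had none in WDM-WDO. In the same order of lists, such a peak stood at 2, 2, 1 and 8 of 8 macrophage markers and at 0, 0, 1 and 4 of 6 neutrophil markers. It stood at 4, 5, 1 and 4 of 7 T cell, 3, 3, 1 and 2 of 5 B cell, 3, 2, 1 and 1 of 7 smooth muscle and 1, 2, 1 and 2 of 6 fibroblast markers. Over all protein-coding genes, the shares with such a peak were 48.1%, 51.2%, 40.2% and 47.6% in that order of lists. In bulk samples, fewer cells of a type and less open chromatin per cell cannot be told apart.

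Cells sense low oxygen through the alpha subunits HIF-1α (Hif1a) and HIF-2α (Epas1), which are degraded when oxygen is present and, once stable, pair with ARNT and bind DNA at a short core sequence. Their targets include the glucose transporter GLUT1, enzymes of glycolysis and the growth factor VEGF-A. Endothelial cells draw much of their energy from glycolysis, and the product of Pfkfb3 sets its pace during vessel sprouting.

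The RefSeq promoter table for GRCm38.p6 held 13 start sites for 8 of the 9 genes, with no entry for Epas1. In the 250 bases before each start, the HIF core was searched as ACGTG and as GCGTG on both strands, where they read CACGT and CACGC on the opposite strand. The palindrome CACGTG holds ACGTG on both strands and counts for each. ACGTG occurred before 8 of the 13 starts, against 17.9% of 21045 starts of protein-coding genes, and either motif occurred before 10, against 44.4%. Of all starts under a peak in every list, 25.6% had ACGTG and 64.7% had either. Among the 9 starts of these genes under a peak in every list, 6 had ACGTG and 7 had either. GCGTG occurred before 3 of those 9, against 52.8% of all starts under a peak in every list, and before 5 of the 13, against 34.1% of all starts. A match is a run of letters and not a shown binding site.

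Hk1 is shown with both starts because the inner one lay under one of the strongest peaks of the 9 genes and the outer one under none. Ldha, Hif1a and the inner start of Pfkfb3 are shown for the palindromes they hold, and Slc2a1 and Hk2 because their start-site peaks differed most between lists. Capitals mark the motif letters, and each line gives the strand of the gene, 5′ to 3′.
Hk1 inner start, chr10:62340422-62340671, minus strand: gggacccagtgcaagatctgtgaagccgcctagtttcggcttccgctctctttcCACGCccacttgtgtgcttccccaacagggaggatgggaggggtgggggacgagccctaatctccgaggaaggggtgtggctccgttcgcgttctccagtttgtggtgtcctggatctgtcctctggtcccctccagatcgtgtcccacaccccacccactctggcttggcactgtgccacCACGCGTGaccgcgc
Hk1 outer start, chr10:62379909-62380158, minus strand: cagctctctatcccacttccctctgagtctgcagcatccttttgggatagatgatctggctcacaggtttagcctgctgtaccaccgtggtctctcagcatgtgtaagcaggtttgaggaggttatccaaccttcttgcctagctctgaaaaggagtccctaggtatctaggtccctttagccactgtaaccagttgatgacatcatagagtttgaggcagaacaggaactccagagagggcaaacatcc
Ldha, chr7:46845554-46845803, plus strand: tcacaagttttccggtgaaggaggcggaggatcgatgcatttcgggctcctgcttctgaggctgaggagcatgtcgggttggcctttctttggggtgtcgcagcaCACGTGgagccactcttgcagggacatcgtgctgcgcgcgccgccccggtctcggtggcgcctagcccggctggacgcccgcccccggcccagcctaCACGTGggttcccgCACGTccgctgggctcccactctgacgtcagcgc
Hif1a, chr12:73907617-73907866, plus strand: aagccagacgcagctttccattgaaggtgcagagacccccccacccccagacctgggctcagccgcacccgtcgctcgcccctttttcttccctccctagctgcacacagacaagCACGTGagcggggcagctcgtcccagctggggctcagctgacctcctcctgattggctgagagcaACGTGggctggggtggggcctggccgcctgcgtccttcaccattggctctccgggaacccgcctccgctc
Pfkfb3 inner start, chr2:11502091-11502340, minus strand: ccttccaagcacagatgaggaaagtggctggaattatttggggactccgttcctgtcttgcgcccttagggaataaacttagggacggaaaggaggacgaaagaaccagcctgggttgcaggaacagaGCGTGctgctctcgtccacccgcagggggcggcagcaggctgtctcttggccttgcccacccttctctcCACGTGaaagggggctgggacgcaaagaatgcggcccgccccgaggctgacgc
Slc2a1, chr4:119108495-119108744, plus strand: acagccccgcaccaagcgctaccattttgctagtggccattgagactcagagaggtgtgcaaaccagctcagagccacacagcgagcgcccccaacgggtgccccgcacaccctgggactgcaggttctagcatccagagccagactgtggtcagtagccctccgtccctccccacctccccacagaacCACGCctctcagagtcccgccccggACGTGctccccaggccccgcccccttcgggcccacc
Hk2, chr6:82774455-82774704, minus strand: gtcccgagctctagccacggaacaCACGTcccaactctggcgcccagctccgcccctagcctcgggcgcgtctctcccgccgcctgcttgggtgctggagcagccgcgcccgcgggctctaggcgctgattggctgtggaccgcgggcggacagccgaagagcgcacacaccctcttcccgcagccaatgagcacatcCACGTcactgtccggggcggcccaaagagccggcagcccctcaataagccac

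The Ldha window held 5 matches to ACGTG, the most of the 13 windows, with 2 palindromes. Hif1a and the inner Pfkfb3 window held 1 palindrome each. The windows before the first Pkm start and the outer start of Vegfa, both under a peak in every list, held neither motif. The inner Hk1 window was 62.8% G and C with 14 CG pairs, and the outer, peakless one was 49.6% with 1. The other starts of these genes under no peak did not share that low content, as the second Pkm start had 61.6% with 18 and the inner Vegfa start 59.6% with 7. Over all genes the median was 61.2% for starts under a peak in every list and 50% for starts under none.

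All 9 genes had a region in all 4 lists at a start (for Epas1, at its lower-coordinate end). These made up 10 of the 16 regions of the 9 genes that were present in every list. The 16 were 33.3% of the 48 regions (95% Wilson interval 21.7 to 47.5%, counting error only), against 21.6% of all regions. Regions in 1 list alone numbered 19 (39.6%, against 54.9% of all regions). Of the 32 regions missing from at least 1 list, 31 lay away from start sites, and their called peaks had a median of 35 reads. The same split held over all regions, of which 58.8% of those within 1 kb of a gene end were in all 4 lists and 9.34% of the rest. By that measure the regions of the 9 genes had 6 of 9 (66.7%) at gene ends and 10 of 39 (25.6%) elsewhere. The second group includes starts inside a span, at Hif1a, Ldha and the inner starts of Hk1 and Pfkfb3. Away from start sites, 6 of 37 regions were in all 4 lists. No share of all regions was worked out by start sites, so this count has no background.

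**Figure D1:**
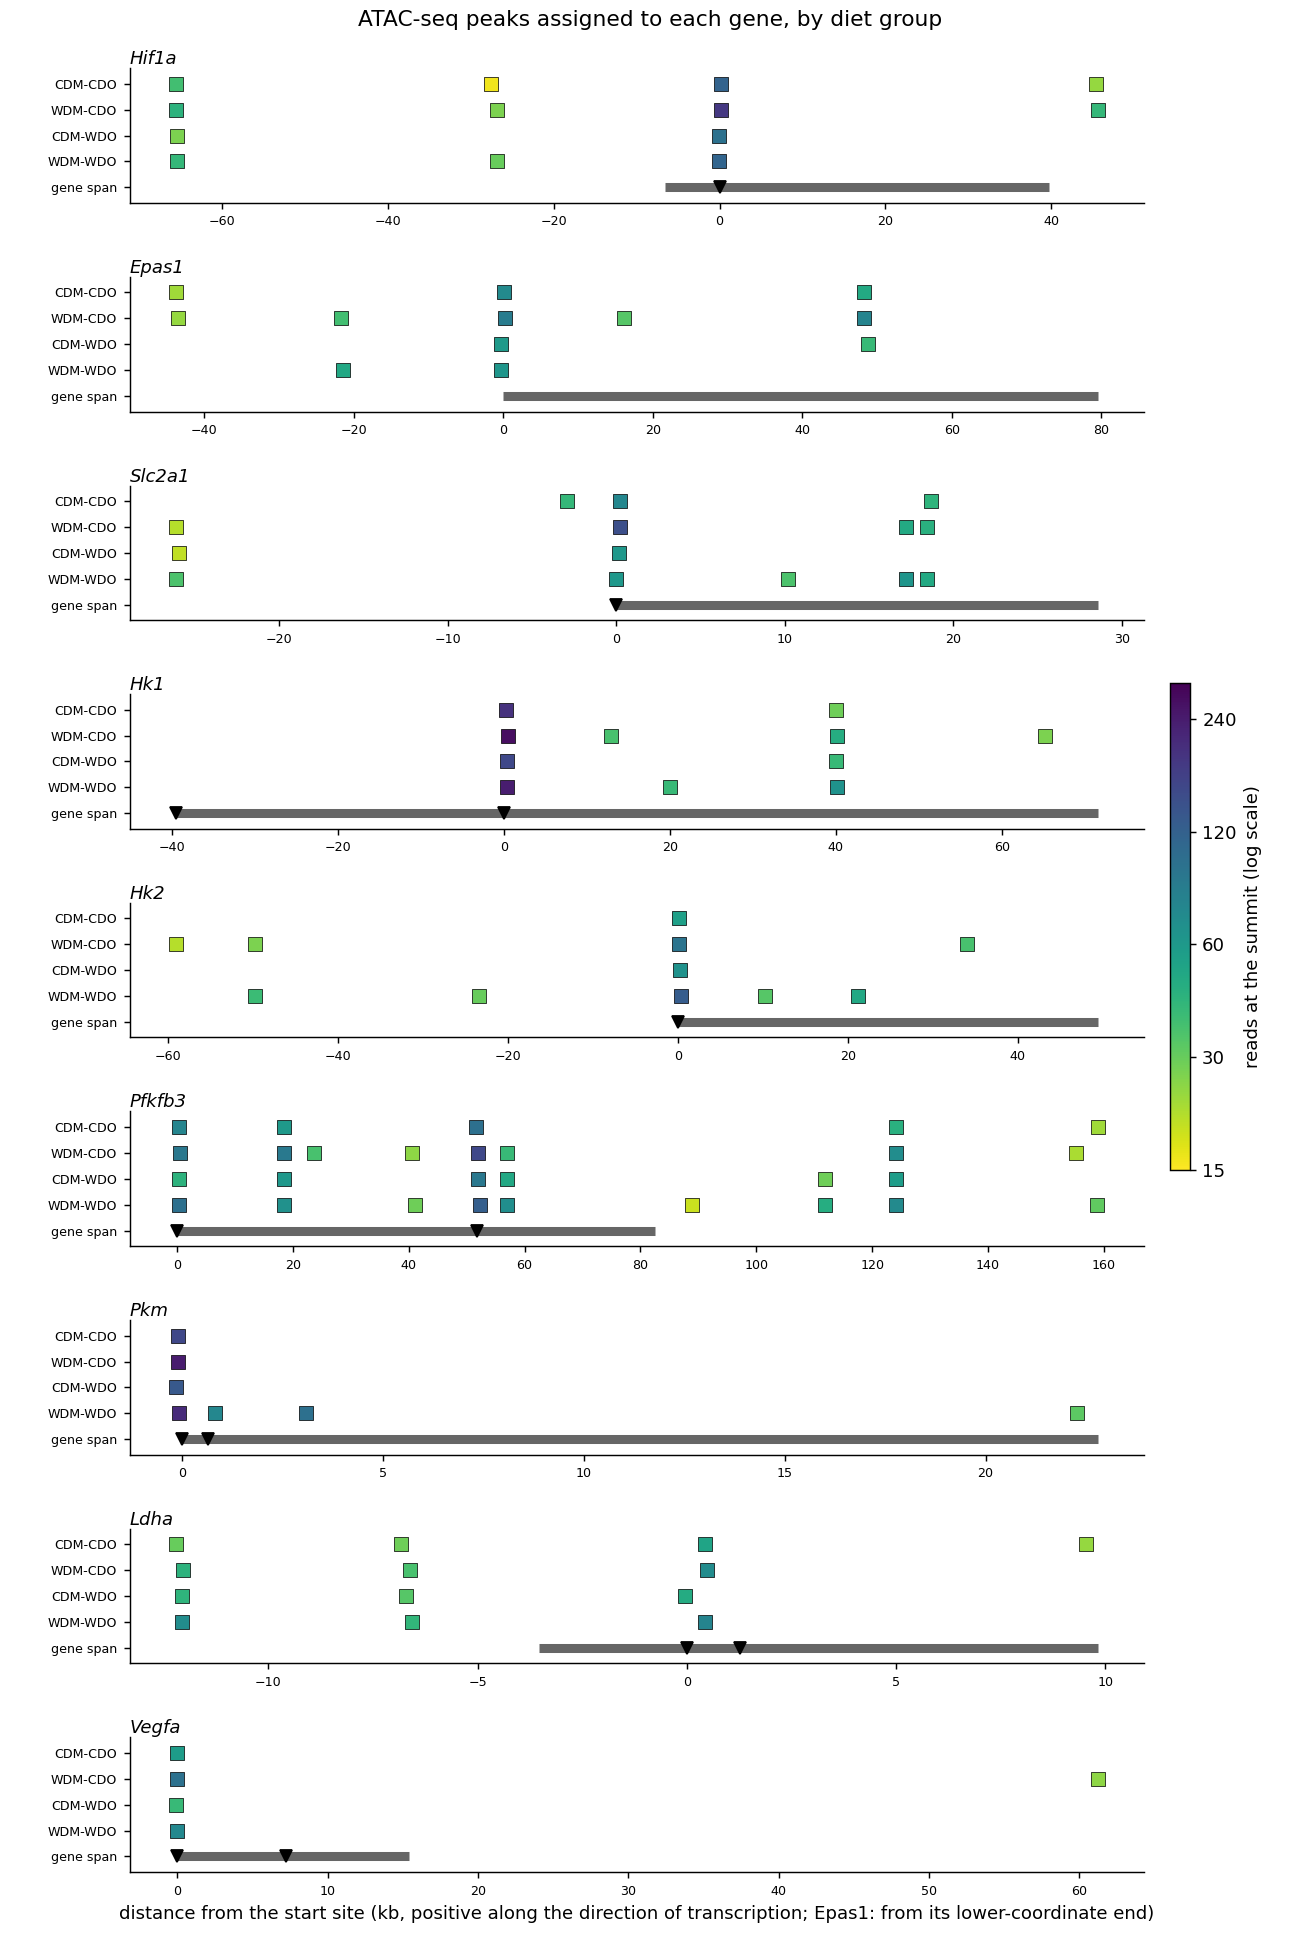
Each square is a peak assigned to a gene, placed by its centre in kb from a start site (Epas1: from its lower-coordinate end) in 1 row per list, coloured by reads at the summit on a log scale; the grey bar is the gene span and triangles are RefSeq starts. Peaks at a start stand in all 4 rows of every gene, while the outer Hk1 start, 39059 bp or more from the nearest peak, has none.

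CDM-CDO had 24 of the 48 regions (50%, against 45.9% of all regions), WDM-CDO 35 (72.9%, against 58.8%), CDM-WDO 20 (41.7%, against 39.2%) and WDM-WDO 35 (72.9%, against 54.2%). Both lists of WD mothers thus held more regions of these genes than both lists of CD mothers, and both were also the longer lists overall. With every list cut to the 18962 peaks of highest −log10 q, the counts were 23, 28, 20 and 33 of 42 regions in the same order. No share of all regions was set beside these cut counts. The genes had 2 (Vegfa) to 11 (Pfkfb3) regions, with a median of 5 against 2 for all 16239 genes with any region. Only 2.19% of those genes had 11 or more.

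**Figure D2:**
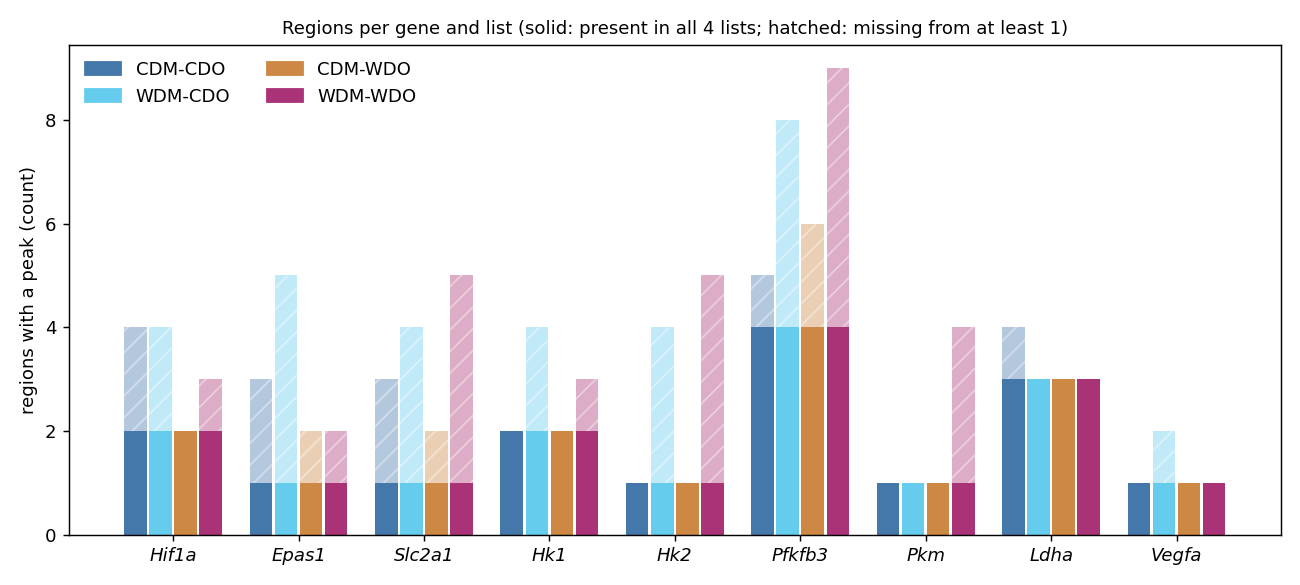
Bars give the number of regions with a peak for each gene in each list, solid for regions present in all 4 lists and hatched for the rest. Pfkfb3 has 5 to 9, and Pkm has 1 in 3 lists and 4 in WDM-WDO.

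At the starts, peak height was read as the number of reads at the summit. To set lists of unequal depth side by side, the reads above the genome background were divided by their median over the 10351 regions present in all 4 lists, which gives a relative height of 1 for a typical shared region. Intervals on both are exact Poisson 95% intervals for counting error in 1 list. For ratios between lists, the place among all 10351 regions is given, since it does not depend on the scaling.

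Hif1a encodes the oxygen-sensitive subunit found in most cells. Its start region (chr12:73907421-73908607) had 117 reads (CDM-CDO), 185 (WDM-CDO), 98 (CDM-WDO) and 114 (WDM-WDO). In relative height these were 2.03, 2.26, 2.18 and 1.61. WDM-WDO was the lowest, at 0.714 times WDM-CDO (12.8th percentile of shared regions), and its interval (1.31 to 1.96) overlapped that of WDM-CDO (1.94 to 2.62). The summits of the 4 lists lay within 27 bp of each other and at most 39 bp from the start. A region 58576 bp upstream of the gene was also in all lists, with 37, 44, 27 and 41 reads. A region 19586 bp upstream was missing from CDM-WDO, and one 5452 bp past the gene was missing from both WDO lists after 24 and 41 reads in the CDO lists.

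Epas1 encodes the subunit typical of endothelium. The region at its lower-coordinate end (chr17:86752949-86755099) had 72, 86, 59 and 62 reads in CDM-CDO, WDM-CDO, CDM-WDO and WDM-WDO, an order of lists used in all values that follow. In relative height they were 1.22, 1.01, 1.26 and 0.836, again lowest in WDM-WDO, with all intervals overlapping. Inside the gene, chr17:86801696-86802991 had 49, 78 and 40 reads and no peak in WDM-WDO. In WDM-CDO it stood in the top 24.3% of the list, and at equal relative height about 67.1 reads would have been expected in WDM-WDO. By the same rule, 79.0% of all regions in WDM-CDO and not in WDM-WDO would have passed the threshold of WDM-WDO. The CDM-WDO summit of this Epas1 region stood 774 bp from that of CDM-CDO, so the region joins neighbouring peaks of different lists. A region 21094 bp outside the gene had 37 and 50 reads in the lists of WD mothers and no peak in the lists of CD mothers. A region 43349 bp away was in both CDO lists only (23 and 24 reads), and one 15953 bp inside the gene in WDM-CDO only (33 reads).

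Slc2a1 encodes GLUT1, which brings glucose into the cell. Its start region (chr4:119108464-119109334) had 75, 146, 61 and 61 reads, high in WDM-CDO alone. Relative heights were 1.27, 1.77, 1.31 and 0.821. The value of WDM-WDO was 0.464 times that of WDM-CDO, the 1.76th percentile of shared regions, and their intervals (0.606 to 1.08 and 1.48 to 2.09) did not overlap. No other of the 16 regions fell outside the central 95% in any of the 4 comparisons. Inside the gene, 16836 bp from the start, chr4:119125581-119126283 had 49 and 63 reads in the lists of WD mothers and no peak in those of CD mothers. The neighbouring chr4:119126766-119127685 had 43, 45 and 49 reads and no peak in CDM-WDO. A region 2753 bp upstream, within the non-coding gene Gm52706, was in CDM-CDO only (41 reads), one 10004 bp past the start in WDM-WDO only (35 reads), and one 25709 bp upstream in all but CDM-CDO (21, 20 and 35 reads).

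Hk1 and Hk2 encode hexokinases, which trap glucose in the cell by adding a phosphate. The inner Hk1 start (chr10:62339233-62340849, overlapping the non-coding gene Hk1os) had 196, 270, 157 and 237 reads, the highest of the 10 start regions in every list. Its relative heights of 3.47, 3.33, 3.56 and 3.45 differed by at most 1.07 times, against a median of 1.46 times for all shared regions. On this scale the inner start was thus nearly level across diets. Higher read counts carry less relative counting error, and no background of equally high regions was worked out. The outer start had no peak within 39059 bp in any list. A region 39657 bp from the inner start had 29, 47, 40 and 65 reads, or relative heights of 0.438, 0.521, 0.812 and 0.880, higher in both WDO lists. Their ratios to the CDO lists with the same mothers were 1.85 and 1.69, the 94.2nd and 92.3rd percentile. The intervals of CDM-CDO and WDM-WDO, which differ in both diets, barely overlapped (0.264 to 0.667 and 0.659 to 1.15). The other 3 Hk1 regions lay in the gene, 2 in WDM-CDO only (27 and 36 reads) and 1 in WDM-WDO only (40 reads).

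The Hk2 start region (chr6:82773285-82775025) had 55, 95, 65 and 125 reads. Relative heights were 0.909, 1.126, 1.40 and 1.78, rising in the order CDM-CDO, WDM-CDO, CDM-WDO and WDM-WDO. The intervals of CDM-CDO (0.663 to 1.21) and WDM-WDO (1.46 to 2.13) did not overlap, while neighbours in that order did. That pair differs in both diets, and its place among shared regions was not worked out. The Hk2 start was the third highest of the 10 start regions in WDM-WDO and the ninth in CDM-CDO. Each WD list was higher than its CD partner, by 1.24 and 1.27 times for the mothers' diet (86.0th and 86.4th percentile) and by 1.54 and 1.58 times for the offspring's (86.9th and 90.4th). The 6 other regions of Hk2 were all in lists of WD mothers: 3 in WDM-WDO only, 2 in WDM-CDO only and 1, 49488 bp upstream, in both (27 and 39 reads). The strongest of them, chr6:82753077-82753409 inside the gene, had 50 reads in WDM-WDO only. CDM-CDO and CDM-WDO had no Hk2 peak beyond the start.

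**Figure D3:**
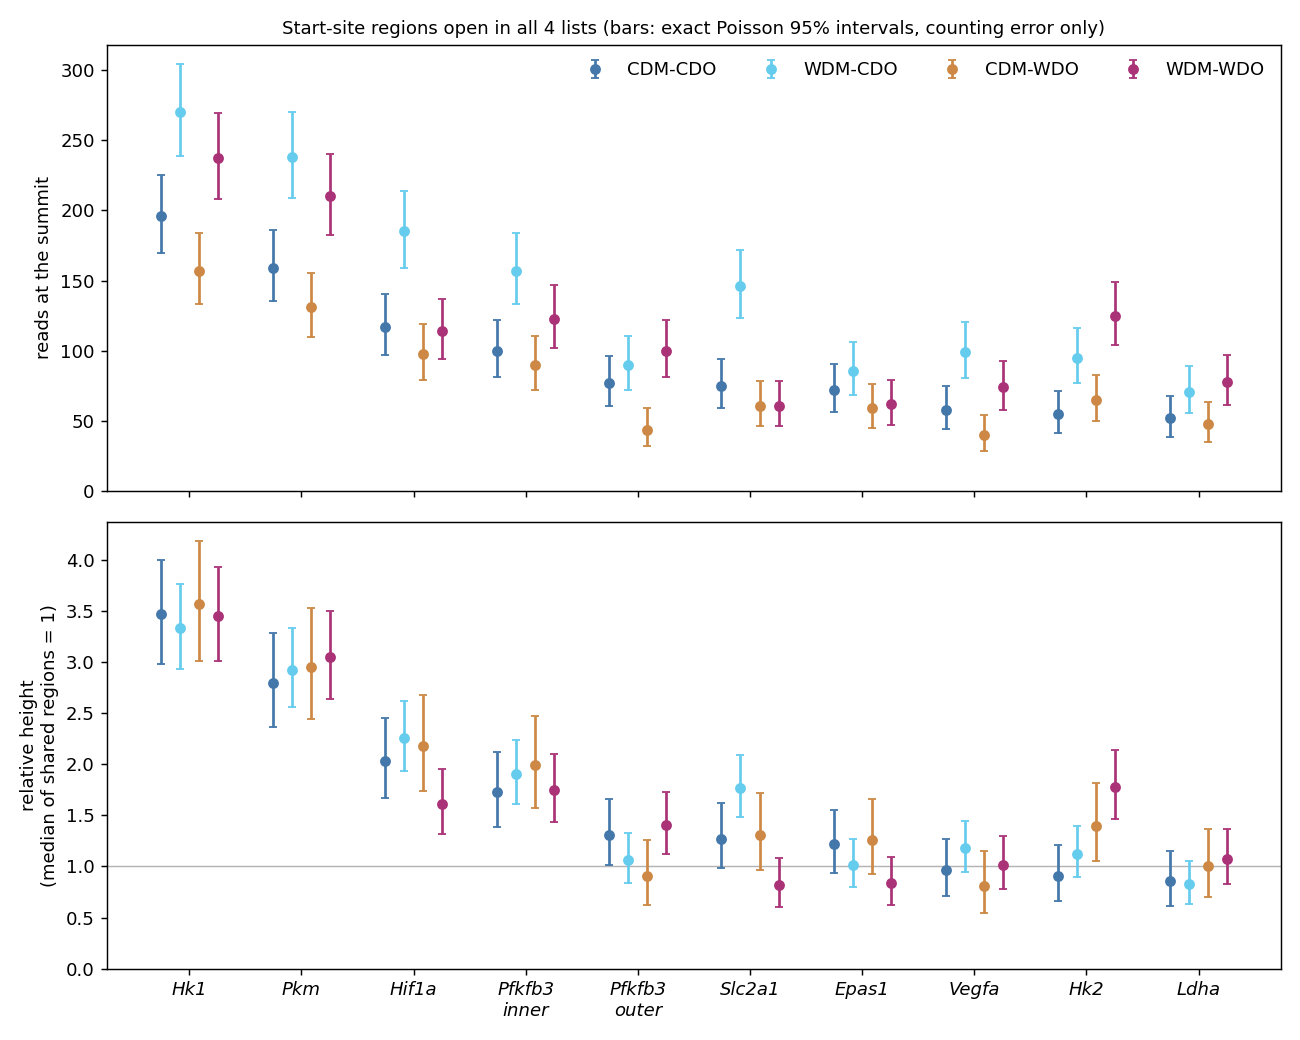
Points give reads at the summit (upper panel) and relative height (lower panel, with 1 for the median of shared regions) for the 10 start regions in the 4 lists, with exact Poisson 95% intervals. Hk1 and Pkm are level in relative height, Slc2a1 is lowest in WDM-WDO (0.821) and Hk2 highest there (1.78).

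Pfkfb3 makes and breaks down fructose-2,6-bisphosphate, the activator of the committed step of glycolysis. Both of its RefSeq starts were open in every list. The outer start (chr2:11552777-11554189) had 77, 90, 44 and 100 reads, and the inner one (chr2:11500758-11503361) had 100, 157, 90 and 123. Relative heights of the outer start were 1.31, 1.06, 0.906 and 1.40, lowest in CDM-WDO, where WDM-WDO was 1.55 times as high (96.1st percentile), with overlapping intervals (0.623 to 1.26 and 1.12 to 1.73). Those of the inner start were 1.73, 1.91, 1.99 and 1.75, a spread of 1.15 times. The starts of this gene thus did not follow the same order of lists.

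A region in the gene, chr2:11535032-11535888, was in all lists with 60, 89, 61 and 67 reads. So was chr2:11429528-11429972, 41458 bp past the gene within the non-coding Gm31990, with 45, 70, 57 and 72 reads and relative heights of 0.728, 0.811, 1.21 and 0.985. Near it, chr2:11441828-11442319 had 29 and 47 reads in both WDO lists and no peak in either CDO list, the only region of the 9 genes with that pattern. At 4986 bp from the inner start, chr2:11496694-11497104 had no peak in CDM-CDO and 40, 50 and 69 reads in the other lists. Of the remaining Pfkfb3 regions, 2 were in WDM-CDO only, 1 in WDM-WDO only, 1 in both lists of WD mothers and 1 in CDM-CDO and WDM-WDO.

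Pkm encodes pyruvate kinase, which makes pyruvate and ATP. Its start region (chr9:59656004-59656977) had 159, 238, 131 and 210 reads. Relative heights of 2.79, 2.93, 2.95 and 3.05 spanned 1.09 times, and the summits lay within 56 bp of each other. This start was thus nearly as level on this scale as that of Hk1, with the same limit. Downstream of it only WDM-WDO had peaks. They stood at chr9:59657265-59657524 (75 reads), chr9:59659374-59659962 (101 reads) and chr9:59678701-59679017 (32 reads), the last 355 bp from the end of Pkm and 816 bp from Gramd2. The one with 75 reads began 38 bp past the second Pkm start. It was the only start-site region of the 9 genes missing from any list. The local backgrounds of the 3 peaks were 32.9, 33.1 and 14.6 reads, above the genome's 6.08. Their fold enrichment, the authors' value, was 2.24, 2.99 and 2.11. At equal relative height and scaled background, only the one with 101 reads would have passed the threshold in CDM-WDO. In WDM-CDO all 3 would have passed, but so would 100% of all regions in WDM-WDO only. That outcome thus does not set the Pkm peaks apart.

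Ldha encodes the subunit of lactate dehydrogenase that favours lactate. Its start region (chr7:46845408-46847102) had 52, 71, 48 and 78 reads, with relative heights of 0.855, 0.824, 1 and 1.07 and overlapping intervals. Both starts lay in the merged region, but a single peak reached the inner one in WDM-CDO alone, and in CDM-CDO and WDM-WDO it ended 20 bp short. Upstream, chr7:46833376-46834119, 8155 bp before the gene and 9576 bp from Gtf2h1, had 30, 44, 43 and 70 reads. Its relative heights of 0.456, 0.484, 0.882 and 0.955 were higher in both WDO lists, by 1.93 and 1.97 times over the CDO lists with the same mothers (95.2nd and 95.8th percentile). The intervals of WDM-CDO (0.332 to 0.673) and WDM-WDO (0.725 to 1.23) did not overlap. The next region, 2622 bp before the gene, had 29, 36, 33 and 42 reads and ratios of 1.48 and 1.40. A peak 113 bp from the gene's end was in CDM-CDO only (24 reads).

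Vegfa encodes the growth factor that drives vessel sprouting. Its outer start (chr17:46031844-46032956) had 58, 99, 40 and 74 reads, or relative heights of 0.964, 1.18, 0.812 and 1.01. Both lists of WD mothers were higher than their partners, by 1.22 and 1.25 times (84.4th and 84.7th percentile), within overlapping intervals. No peak came within 6681 bp of its inner start. The only other Vegfa region lay 45696 bp past the gene, in WDM-CDO only (25 reads).

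In position, the summits of the 16 regions in all lists spread over a median of 184 bp (27 to 307), against 124 bp for all 10351 shared regions. They lay within 100 bp for 3 of 16 (18.8%), against 41.5% of shared regions. No interval was worked out for this share. Start regions made up 10 of the 16, and the background was not matched for start sites or region width.

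The first comparison was the mothers' diet in offspring on CD. Of the 38 regions in WDM-CDO or CDM-CDO, 14 were in WDM-CDO only (36.8%, interval 23.4 to 52.7%, against 34.3% of all regions) and 3 in CDM-CDO only (7.89%, 2.72 to 20.8%, against 15.9%). The 14 belonged to Pfkfb3 (4), Hk2 (3), Epas1, Slc2a1 and Hk1 (2 each) and Vegfa (1). The 3 belonged to Slc2a1, Pfkfb3 and Ldha. Of the 14, 12 would have passed the threshold of CDM-CDO at equal relative height, against 54.6% of all regions in WDM-CDO only. Called peaks are chosen for their height, so such expectations run high. Hif1a and Pkm had no region on 1 side only. Both intervals included the share of all regions.

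The second was the mothers' diet in offspring put back on WD. Of 36 regions, 16 were in WDM-WDO only (44.4%, 29.5 to 60.4%, against 42.2%) and 1 in CDM-WDO only (2.78%, 0.492 to 14.2%, against 20.3%). The 16 lay at Hk2 (4), Slc2a1, Pfkfb3 and Pkm (3 each), and Hif1a, Epas1 and Hk1 (1 each). The 1 in CDM-WDO only was the region inside Epas1. Of the 16, 10 would have passed the threshold of CDM-WDO, against 45.7% of all regions in WDM-WDO only. WDM-WDO had a peak at the ends of 8 of 8 macrophage markers and CDM-WDO at 1 of 8, with Csf1r, Adgre1, Itgam, C1qb and Trem2 without one in the other 3 lists. Their part in the WDM-WDO regions was not tested.

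The third was the offspring's diet with CD mothers. Of 27 regions, 17 were in both lists (63.0%, 44.2 to 78.5%, against 38.1% of all regions), 3 in CDM-WDO only (11.1%, 3.85 to 28.1%, against 25.6%) and 7 in CDM-CDO only (25.9%, 13.2 to 44.7%, against 36.4%). The 3 lay at Pfkfb3 (2) and Slc2a1 (1), and the 7 at Hif1a and Slc2a1 (2 each), Epas1, Pfkfb3 and Ldha (1 each). Of the 7, 5 would have passed the threshold of CDM-WDO, against 62.9% of all regions in CDM-CDO only.

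The fourth was the offspring's diet with WD mothers, where the lists were closest in length. Of 46 regions, 24 were in both (52.2%, 38.1 to 65.9%, against 42.3%), 11 in WDM-WDO only (23.9%, 13.9 to 37.9%, against 26.0%) and 11 in WDM-CDO only (23.9%, against 31.8%). Both intervals included the share of all regions. All 11 regions in each direction would have passed the threshold of the other list at equal relative height. Over all regions the shares were 100% of those in WDM-WDO only and 79.0% of those in WDM-CDO only. By gene, Pkm (3) and Slc2a1 (1) had regions in WDM-WDO only and none in WDM-CDO only, while Epas1 (3), Hif1a (1) and Vegfa (1) had the reverse. For Slc2a1, Hif1a and Vegfa this rests on 1 region each. Hk1, Hk2 and Pfkfb3 had regions on both sides. Each of these comparisons shares a list with others, so their counts are not independent.

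**Figure D4:**
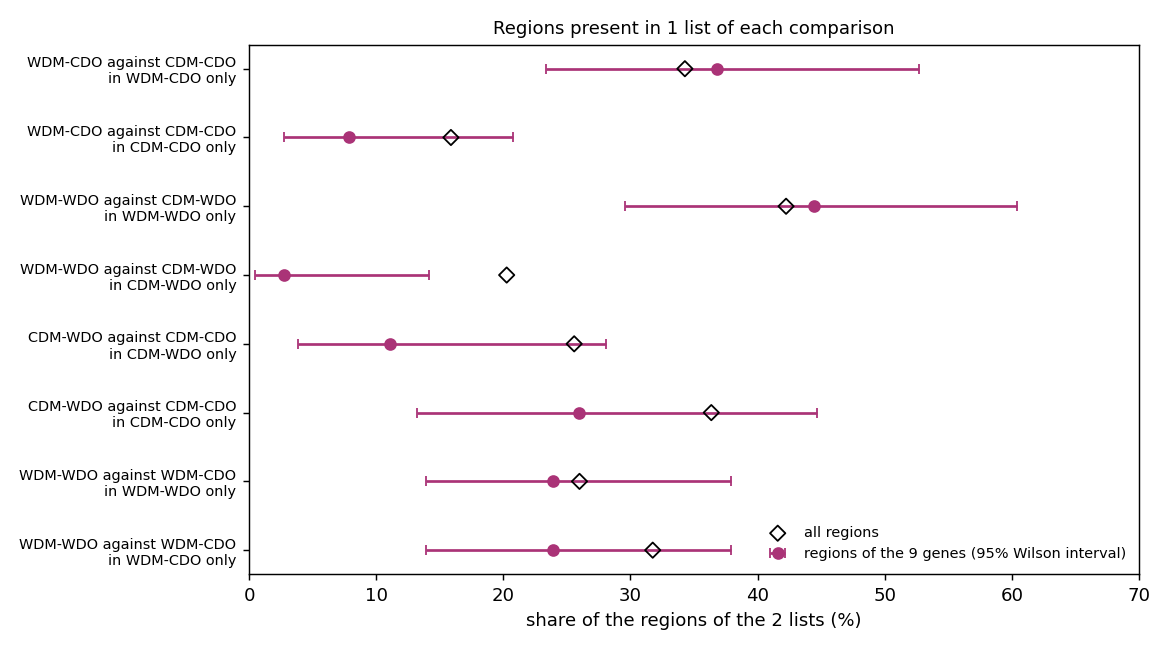
Filled points give the share of the 9 genes' regions found in 1 list of each comparison, with 95% Wilson intervals, and diamonds give the share over all regions. The interval lies below its diamond for regions in CDM-WDO and not WDM-WDO (2.78% against 20.3%) and includes it in the other 7 cases.

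Among the 16 regions in every list, relative height was above that of the partner list in 10 for WDM-CDO over CDM-CDO, 8 for WDM-WDO over CDM-WDO, 13 for CDM-WDO over CDM-CDO and 10 for WDM-WDO over WDM-CDO. Over all shared regions the shares above the partner were 51.1%, 43.0%, 57.0% and 47.7%. The median ratios were 1.06, 0.999, 1.11 and 1.06, against 1.01, 0.956, 1.05 and 0.985 for all shared regions. Scaled instead by the strongest 10% of shared regions, an alternative chosen after seeing the data, each ratio shifts by -0.09, 0.18, -0.13 and 0.14 on the log2 scale in these comparisons, and the counts become 7, 9, 8 and 11. Directions of small ratios, such as those of the Hk1 and Pkm starts, therefore depend on the scale, while the ratios given above for the Slc2a1 and Hk2 starts and for the mothers' diet at the Vegfa start kept their sign on both.

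Other genes of the pathway were taken from 4 lists, of which 66 of 68 genes matched the table. Among the 9 genes themselves, a peak within 1 kb of a gene end was present at 7 (CDM-CDO) and 6 (each other list). The shares over all genes were 48.1% (CDM-CDO), 51.2% (WDM-CDO), 40.2% (CDM-WDO) and 47.6% (WDM-WDO). Hif1a and Hk1 have none, as their open starts lie inside the span. The open start of Ldha also lies inside. Ldha counted in CDM-CDO only through the 24-read peak 113 bp from the gene's end. Of the 66, such a peak was present in all 4 lists at 40 (60.6%, against 37.0% of all genes), in none at 12 and in some at 14. Of the HIF regulators, which include its partner ARNT and the machinery of its degradation, 10 of 14 had one in every list. Egln1, an oxygen-sensing hydroxylase that marks HIF for degradation, lacked one in CDM-WDO only. Of the glycolysis genes 17 of 29 had one in every list. Tpi1, Eno2 and Tigar lacked it in CDM-WDO only, whereas the aldolase gene Aldoa and the lactate exporter gene Slc16a3 had it in both lists of WD mothers only. However, the 1 region assigned to Aldoa was present in all 4 lists. Tpi1 had no assigned region, so its gene-end peaks were assigned to another gene. Of the hypoxia targets 13 of 19 had one in every list. Adm, which encodes the vasodilator adrenomedullin, and the collagen cross-linking gene Lox lacked it in WDM-WDO only, and Pdgfb had it there only. Of 4 other VEGF family genes none had one in every list, and Vegfc, which drives lymphatic growth, lacked it in CDM-CDO only. In all, 5 of the 14 genes with a peak in some lists lacked it in CDM-WDO alone, which was the shortest list.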

How the data were processed

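ATAC-seq of 8 samples was analysed as 4 deposited narrowPeak lists, 1 per group; H3K27ac (4 samples) was left aside. The submitters' processing notes name Bowtie2 2.4.5, SAMtools 1.13, MACS2 2.2.9.1 and build GRCm38 (mm10). Pooling, read shifting and settings: not given in the sources used here. For each peak the authors deposited a fold enrichment (ratio), a −log10 p and a −log10 q (lowest 1.30 to 1.31). The authors' summit position was used as deposited.

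Whole reads at each summit were recovered from fold and −log10 p under the Poisson rule of MACS2 (relative tolerance 0.0001, met by 99.87 to 99.98% of peaks). Peaks on chromosomes 1 to 19 and X were merged at 1 bp of overlap and assigned to RefSeq GRCm38.p6 gene spans, which carry no exons. Python 3.11.15, pandas 2.3.3 and scipy 1.17.1 were used, and the steps were tested on simulated data. No test of diet was possible with 1 list per group. The genes named were the 9 members, fixed pathway lists and cell markers (Ero1l and Figf were not in the table). Members and lists were chosen with earlier results of these data known. Whether a missing region would have passed another list's threshold was worked out from its relative height, its scaled local background and that list's lowest −log10 p.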

Additional observations from a re-analysis of the deposited data

Results flagged for a closer look

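At 8 regions the lists of WD and CD mothers differed in opposite directions under the offspring's diets, in peak presence at 1 and in relative height, on both scales tried, at 7. The difference itself was not tested, since each group had 1 list. Over all shared regions, the ratio of the mothers' diets was above 1 in 51.1% for CDO and 43.0% for WDO offspring. The share of all shared regions with opposite directions was not worked out, so the count of 7 has no background. The Pfkfb3 region 76171 bp past the gene had a peak in CDM-CDO (23 reads) and WDM-WDO (31 reads) only. In relative height, the ratio of the mothers' diets in WDO offspring divided by that in CDO offspring was 0.452 at the Slc2a1 start (1.39 in CDO and 0.628 in WDO, the 2.2nd percentile of shared regions) and 1.91 at the outer Pfkfb3 start (0.813 and 1.55, the 97.2nd percentile). It was 0.667 at the Hif1a start and 1.24 at the Hif1a region 58576 bp upstream. At the inner Pfkfb3 start it was 0.795, at the Pfkfb3 region 41458 bp past the gene 0.73, and at the Ldha start 1.12, all within the central 95% of shared regions.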

How the results depend on the processing

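Of 89 values under alternatives for 17 counts, 81 stayed within 1.5 times the count reported. Some alternatives had little or no room to move a count. Keeping only regions with 1 nearest gene changed none, and a count over 3 lists cannot fall below that over 4. For regions in only the shorter list of a comparison, 100% of all regions were expected to pass the other threshold. The 81 is therefore no measure of how stable the counts are. With assignment within 10 kb, regions in WDM-CDO and not in CDM-CDO numbered 8 (14 as reported), in CDM-WDO and not in CDM-CDO 1 (3), in CDM-CDO and not in CDM-WDO 4 (7), and in WDM-CDO and not in WDM-WDO 7 (11). With all lists cut to 18962 peaks, those in WDM-CDO and not in CDM-CDO numbered 9 and those in WDM-CDO and not in WDM-WDO 6. With overlap of 50% of the shorter peak, those in CDM-CDO and not in WDM-CDO numbered 5 (3). Limited to regions expected to pass the other list's threshold, regions called with WD but not CD mothers in WDO offspring numbered 10 (16). This alternative, the count over 3 lists at a time and the scaling by the strongest 10% of shared regions were added after seeing the data. No paired analysis was possible because each group had 1 list; for the same reason no sample could be left out. Calls end at about 14 to 16 reads, so a missing peak is not shown to be closed chromatin.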
